A study of Gallus gallus with 12 samples.

Results

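The coelomic epithelium and the mesenchyme of the left dorsal mesentery were compared over all chicken genes on an expression array. The dorsal mesentery is the bridge of tissue by which the embryonic gut hangs below the notochord and aorta. By their titles, 6 of the 12 arrays of the study carried RNA of the left side, 3 of left epithelium and 3 of left mesenchyme, and the other 6 carried right epithelium and right mesenchyme. All samples came from white Leghorn embryos at Hamburger-Hamilton stage 21, about day 3.5 of incubation, with no mutation and no treatment in the labels. Frozen embryos were sectioned at 8 µm, the compartments were cut out by laser, and the amplified RNA was labelled from 5 ng. The series text counts 1939 cut sections over 3 experiments, with the material of 1 compartment in 1 experiment pooled for 1 array, so n = 3 per compartment without technical repeats. Neither the embryos per experiment nor the way the border between the layers was recognised under the laser is described.

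A coelomic epithelium is a polarised sheet that lines the body cavity, rests on a basement membrane and carries keratins and cell junctions. Cells leave it through an epithelial-to-mesenchymal transition, in which transcription factors of the Snail and Zeb families lower the expression of junction genes. The mesenchyme below it is a loose cell population in a matrix rich in hyaluronan, and blood vessels, blood cells, macrophages and migrating neural crest cells run through or settle in it. In the chick, the left and the right side of the dorsal mesentery take on different architectures in both layers before the gut begins to rotate.

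The values were MAS5 signals, the Affymetrix summary of a probe set's brightness, which the authors had scaled to a common level per array. Correlations over all chicken probe sets were 0.963 to 0.967 between arrays of 1 left compartment and 0.955 to 0.963 between the compartments. The median SD between the 3 arrays was 0.27 log2 in left epithelium and 0.25 log2 in left mesenchyme. A floor was set on each array from control probe sets without a chicken target, at signals of 19.3 to 26.9 on the left arrays, and 72.0% to 76.7% of the chicken probe sets were above it. The 3 prime minus 5 prime signal of the GAPDH controls, a gauge of RNA integrity, was 0.14 log2 lower in left epithelium (exact two-sided permutation p = 0.3). For the actin controls it was 0.27 log2 lower (exact permutation p = 0.2), where 3 arrays against 3 cannot give a p below 0.1. These are bulk samples, in which fewer cells of a type and less RNA per cell cannot be told apart.

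The largest changes of each direction were that of SST1, the somatostatin gene, which rose by 3.12 log2 in left epithelium, and that of GJA5, an arterial connexin gene, which fell by 4.08 log2 there. Among the gene lists, endothelium had the most calls, with 18 of 28 tested genes lower and none higher. Of 22616 tested probe sets, 440 (1.95%) passed an adjusted p of 0.05 in limma, 152 higher (0.672%) and 288 lower (1.27%) in left epithelium. At least 2-fold changes made up 286 of them, 96 higher (0.424% of tested) and 190 lower (0.84% of tested). No call changed sign between experiments (440 of 440), but the calls were made on these same arrays, where a change of sign makes a call unlikely. On 434 of the 440 calls the compartments did not overlap, which held for 16.9% of all tested probe sets, 7.84% with left epithelium above and 9.04% with it below. A call thus nearly fixes a lack of overlap. Where the layers of a called gene are said below to lie apart, that adds no support to the call. With 1 probe set standing for each gene, 79 of 9611 genes (0.822%) were higher and 175 (1.82%) lower, together 254 (2.64%). The median difference of all tested probe sets was close to 0, at -0.0038 log2. Without left epithelium 1, 2 or 3 the count of rises was 91, 105 and 122, and without left mesenchyme 1, 2 or 3 it was 114, 88 and 93. The count of falls was 197, 191 and 232, and 168, 148 and 157, in the same order. Both counts were thus lower whichever array was left out. Each of these fits has fewer arrays, so a lower count does not by itself mark the array left out.

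**Figure D1:**
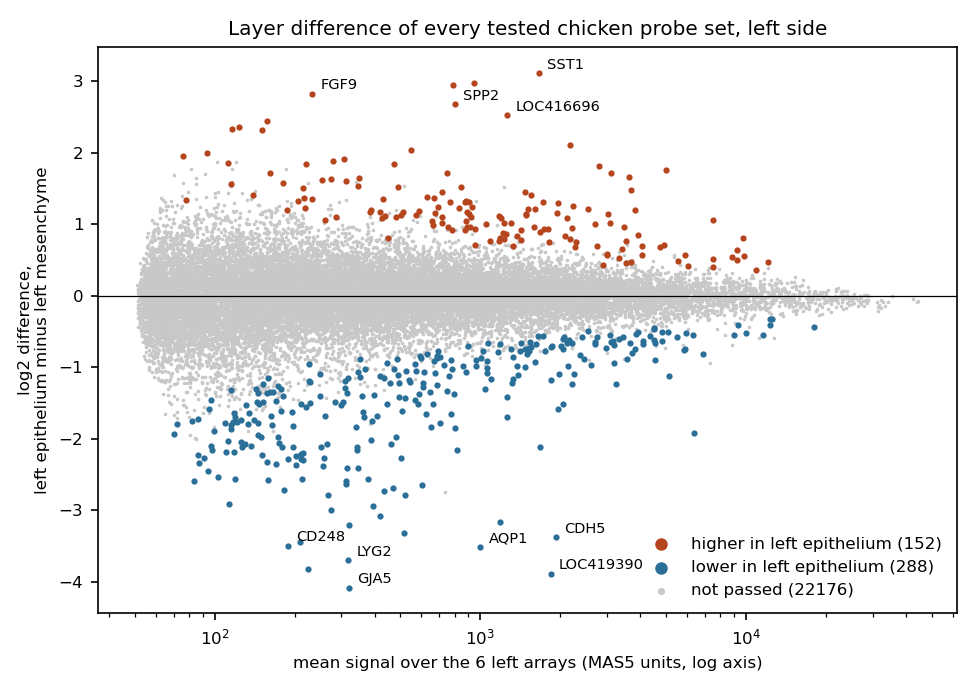
Log2 difference of left epithelium minus left mesenchyme (vertical axis) against the mean signal over the 6 left arrays (horizontal log axis) for each of 22616 tested chicken probe sets. The 152 probe sets that passed as higher in left epithelium are red, the 288 that passed as lower are blue, the others grey, and the named points are representative probe sets of the 4 largest rises and 6 largest falls among named genes. Among the named genes the falls reach -4.08 log2 and the rises 3.12 log2.

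SST1 encodes a peptide hormone. Its signal was 3522, 3507 and 1871 on the 3 left epithelium arrays, against 635, 267 and 178 on the left mesenchyme arrays. Every epithelial array was above every mesenchymal one, although the third was well below the other epithelial arrays. The difference was 3.12 ± 0.35 log2 (SE), or 8.69-fold (limma adjusted p = 7.5e-05). FGF9, a secreted fibroblast growth factor that the mesothelium of the mouse lung is known to make, had signals of 448, 439 and 369 in left epithelium, against 59.5, 48.1 and 30.9 in left mesenchyme. The compartments lay far apart, at 2.83 ± 0.39 log2, or 7.10-fold (adjusted p = 0.00048). SPP2, the gene of a secreted phosphoprotein that binds bone morphogenetic proteins, had 1209, 1229 and 1706 in left epithelium, against 131, 358 and 166 in left mesenchyme. That is 2.68 ± 0.31 log2, or 6.4-fold (adjusted p = 0.00011), with no overlap between the layers.

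SLC1A3, which encodes a glutamate transporter, had signals of 846, 990.2 and 827 in left epithelium, against 184, 259 and 174 in left mesenchyme. The 3 arrays of each layer were close together and the layers clearly apart, by 2.04 ± 0.20 log2 (4.12-fold, adjusted p = 1.2e-05). LOC416696, a gene without a name in the annotation, had 1985, 2439 and 2065 in left epithelium, against 420.3, 281 and 395 in left mesenchyme, a rise of 2.53 ± 0.18 log2 (adjusted p = 5.6e-07). CYGB, the gene of cytoglobin, an oxygen-binding globin of connective tissue cells, had 5507, 4545 and 4168 in left epithelium, against 1754, 1478 and 1106 in left mesenchyme. Its difference was 1.72 ± 0.29 log2 (adjusted p = 0.0028), and the layers did not overlap.

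The other 6 of the 12 largest rises were dimmer, with mesenchymal means of 21.2 to 89.5. They were ANGPTL5, a secreted angiopoietin-like protein (2.36 ± 0.45 log2), SDK1, a homophilic adhesion molecule (2.31 ± 0.44), and RLN3, a relaxin-family peptide (2.00 ± 0.45). LMX1B, a LIM-homeodomain transcription factor, rose by 1.96 ± 0.42, TMEM108 by 1.85 ± 0.36 and EEF1A2, a translation elongation factor, by 1.84 ± 0.41. In left mesenchyme LMX1B was above the floor on 1 of 3 arrays, and ANGPTL5, SDK1 and RLN3 on 2 of 3. Each of these 6 calls was lost in at least 1 of the fits that left out a single left array. RLN3 was lost without any 1 of the 6 left arrays (adjusted p = 0.065 to 0.12), LMX1B without left epithelium 2 or 3 or left mesenchyme 1 or 2 (0.071 to 0.12) and without the replicate block (0.071), and EEF1A2 without left epithelium 1 or 2 or left mesenchyme 1 or 3 (0.062 to 0.18). ANGPTL5 and SDK1 were lost without left epithelium 1 (0.062 and 0.065) or left mesenchyme 3 (0.073 and 0.061), and TMEM108 without left epithelium 1 (0.084) or left mesenchyme 1 (0.085).

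GJA5 encodes a gap junction protein of arterial endothelium. Its signal was 23.5, 41.3 and 6.88 in left epithelium, against 661, 663 and 530.2 in left mesenchyme, or 16.9-fold lower in left epithelium (-4.08 ± 0.49 log2, adjusted p = 0.00013). The epithelial arrays were near the floor, and 2 of the 3 were above it. AQP1, the water channel of endothelium and red blood cells, had 191, 129 and 128 in left epithelium, against 1777, 1724 and 2037 in left mesenchyme (-3.51 ± 0.30 log2, adjusted p = 2.7e-06). CD248, the gene of endosialin, a surface protein of pericytes and fibroblasts, had 2.34, 27.8 and 28.1 in left epithelium, against 331, 420.3 and 318 in left mesenchyme (-3.49 ± 0.42 log2, adjusted p = 0.00013). Both genes were separated completely by layer. MEF2C, a transcription factor of muscle and endothelium, had 68.7, 85.3 and 208 in left epithelium, against 958, 465 and 1337 in left mesenchyme (-2.79 ± 0.32 log2, adjusted p = 0.0001).

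LYG2, which encodes a goose-type lysozyme, had 38.2, 18.4 and 35.8 in left epithelium, against 383, 784 and 648 in left mesenchyme (-3.70 ± 0.42 log2, adjusted p = 7.5e-05). AvBD1, an avian beta-defensin, had 16.4, 44.6 and 92.8 in left epithelium, against 467, 341 and 952 in left mesenchyme (-3.20 ± 0.37 log2, adjusted p = 0.0001). LECT2, a chemotactic protein of leukocytes, had 91.3, 87.3 and 52.5 in left epithelium, against 476, 671 and 988 in left mesenchyme (-2.93 ± 0.32 log2, adjusted p = 6.4e-05). In each of the 3 genes the highest epithelial array was well below the lowest mesenchymal one. Of the genes without a role given here, LOC419390 was at -3.88 ± 0.28 log2 (adjusted p = 5.6e-07) and CXorf36 at -3.31 ± 0.40 log2 (adjusted p = 0.00013), both lower in left epithelium. The other 3 of the 12 largest falls, CDH5, SOX7 and ECSCR, belong to the endothelium and are described with it.

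**Figure D2:**
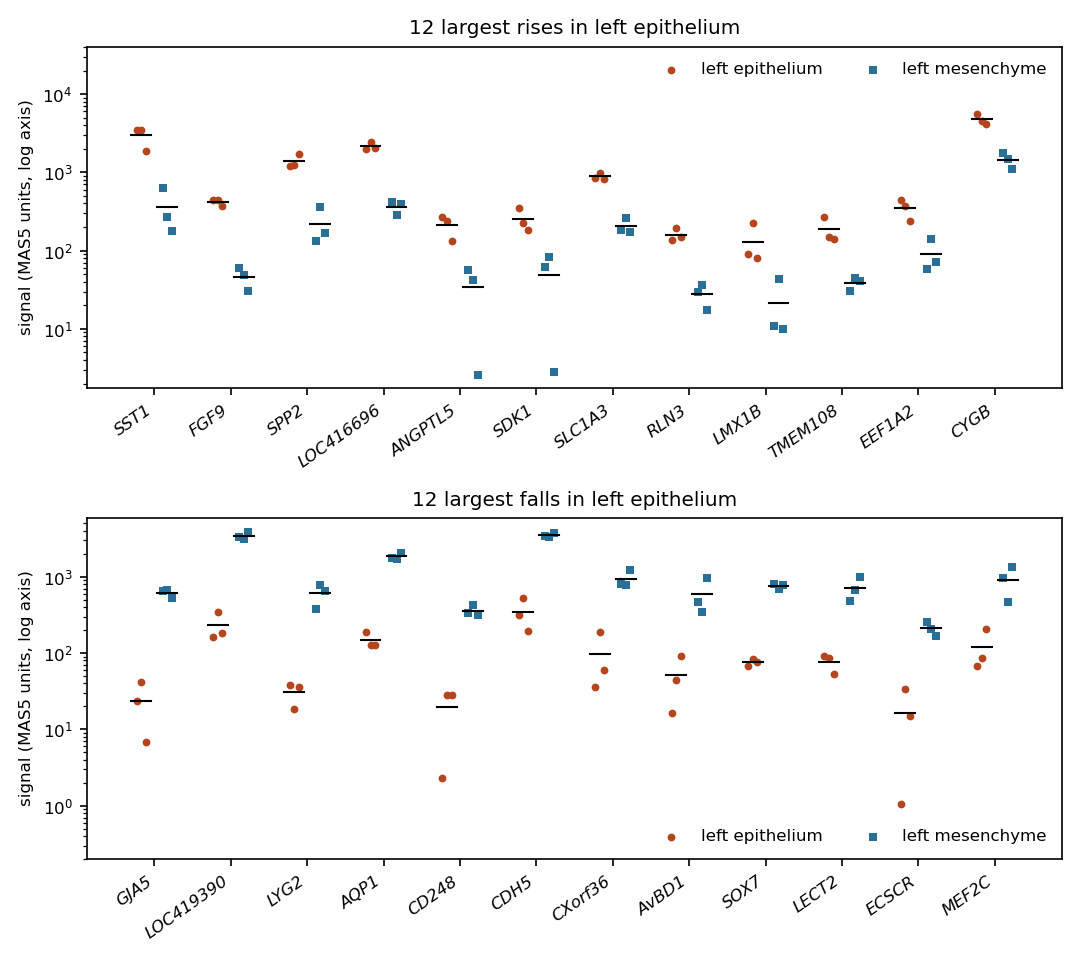
Signal in MAS5 units on a log axis for the 12 genes with the largest rises (top) and the 12 with the largest falls (bottom) in left epithelium. Circles are the 3 left epithelium arrays, squares the 3 left mesenchyme arrays, and a line marks the mean of each 3. No gene shown has overlapping compartments, which is largely fixed by the choice of the largest changes that passed. The lower compartment of several genes lies near the floor of 19.3 to 26.9.

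Markers of the coelomic epithelium, among them transcription factors known from the mesothelium, the adult descendant of this layer, were read by layer. The list was chosen with earlier results of these data known, so it is no independent check of the labels. Of 26 listed genes 22 had a probe set and 17 were tested. Of these, 7 rose in left epithelium, none fell, and 10 did not pass, with a median difference of 0.23 log2. Only 9 of the 17 were above 0, so that 8 of the 10 that did not pass had the opposite sign. Over all 9611 tested genes the median was 0.0006 log2, 0.822% rose and 1.82% fell, and the counts of each list below stand against these shares. PODXL, the gene of podocalyxin, an anti-adhesive sialomucin of apical membranes, had 5145, 5760.5 and 5452 in left epithelium, against 2089, 2037 and 1748 in left mesenchyme. The layers were 1.47 ± 0.12 log2 apart (2.78-fold, adjusted p = 1.4e-06), without overlap. A dim further probe set of PODXL had the opposite sign and did not pass.

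BNC2 and BNC1 encode basonuclins, which are zinc finger proteins. BNC2 had signals of 490.3, 631 and 448 in left epithelium, against 175, 171 and 156 in left mesenchyme (1.54 ± 0.29 log2, adjusted p = 0.0065). LRRN4, a leucine-rich repeat membrane protein of mesothelial cells, had 805, 608 and 787 in left epithelium, against 226, 269 and 234 in left mesenchyme (1.52 ± 0.26 log2, adjusted p = 0.0029). For both genes the spread within a layer was small beside the distance between the layers. The homeobox genes EMX2 and LHX9, which mouse gonads need to form from the coelomic epithelium, rose by 1.36 ± 0.31 log2 (adjusted p = 0.026) and 1.25 ± 0.16 log2 (adjusted p = 0.00021). ALDH1A2, which makes retinoic acid, was bright in both layers and rose by 0.51 ± 0.10 log2 (adjusted p = 0.0073). BNC1 was chosen after its values were seen and rose by 0.95 ± 0.17 log2 (adjusted p = 0.0039). Of the members that did not pass, TCF21, a transcription factor of the epicardium, was at -1.21 ± 0.33 log2 (adjusted p = 0.077), TBX18 at -0.67 ± 0.21 (0.15), SULF1 at -0.48 ± 0.31 (0.63) and PTPRO at -0.40 ± 0.22 (0.53). NR5A1, GATA5, GATA6 and SEMA3D lay between -0.22 and -0.02 log2, and GATA4 and MEIS1 were at 0.23 and 0.28 log2. The count of 7 fell to 5 without left mesenchyme 2 or left mesenchyme 3. Without left epithelium 1, 1 member of the list passed as lower in left epithelium. EMX2 was lost without left epithelium 1 or 3 or left mesenchyme 2 or 3 (adjusted p = 0.11 to 0.17) and without the replicate block (0.06), ALDH1A2 without left epithelium 2 or left mesenchyme 1 or 3 (0.063 to 0.067) and BNC2 without left mesenchyme 2 (0.055).

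Of 37 tested genes of keratins, junctions and apicobasal polarity, 4 rose (10.8% against 0.822% of all genes) and none fell. The median was 0.26 log2, and 25 of 37 were above 0. KRT7, a keratin of simple epithelia, had 11296, 9222 and 10020.2 in left epithelium, against 5514, 4008 and 5182 in left mesenchyme (1.06 ± 0.10 log2, adjusted p = 6.7e-06). KRT24, another keratin, had 5178, 5130 and 5723 in left epithelium, against 2115, 2298 and 2569 in left mesenchyme (1.20 ± 0.12 log2, adjusted p = 1.8e-05). Both keratins were bright in both layers, and the layers did not overlap. PKP2, the gene of the desmosomal protein plakophilin 2, had 1850.2, 1621 and 1419.8 in left epithelium, against 836, 759 and 671 in left mesenchyme (1.09 ± 0.18 log2, adjusted p = 0.002). PARD6B, part of the apical polarity complex, had 362, 205 and 276 in left epithelium, against 77.7, 75.9 and 89.4 in left mesenchyme (1.58 ± 0.30 log2, adjusted p = 0.0067). PARD6B lost its call without left epithelium 1 (0.065) or left mesenchyme 1 (0.051). EPCAM, an adhesion molecule of many epithelia, counted here among the endoderm markers too, had 6641, 7257 and 6704 in left epithelium, against 5565, 5144 and 5563 in left mesenchyme, and did not pass (0.34 ± 0.10 log2, adjusted p = 0.092).

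Of 22 tested basement membrane genes, 2 were higher (9.09% against 0.822% of all genes), 1 was lower (4.55% against 1.82%) and 19 did not pass (median -0.12 log2). LAMA5, the laminin alpha 5 chain of epithelial basement membranes, had signals of 2013, 2071 and 2063 in left epithelium, against 915, 881 and 984 in left mesenchyme. The 3 epithelial arrays were almost equal, and the difference was 1.13 ± 0.18 log2 (2.19-fold, adjusted p = 0.0021). COL4A6, a collagen IV chain, had 983, 914 and 885 in left epithelium, against 557, 319.8 and 373 in left mesenchyme (1.16 ± 0.27 log2, adjusted p = 0.035). FREM1, a protein of the membrane's outer face, had 527, 487 and 446 in left epithelium, against 906, 875 and 880.2 in left mesenchyme (-0.85 ± 0.18 log2, adjusted p = 0.016). Neither COL4A6 nor FREM1 showed overlapping layers. The COL4A6 call was lost without left epithelium 1, 2 or 3 or left mesenchyme 2 or 3 (0.062 to 0.24), and the FREM1 call without left epithelium 2 or 3 or any left mesenchyme array (0.06 to 0.11).

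Of 37 collagens and matrix glycoproteins, 2 rose (5.41% against 0.822% of all genes) and 1 fell (2.7% against 1.82%, near the share of all genes), and the median was 0.00 log2. COL12A1, a fibril-associated collagen, had 1040.4, 1427 and 1319.9 in left epithelium, against 363, 568 and 572 in left mesenchyme (1.32 ± 0.22 log2, adjusted p = 0.0032). SPON1, the gene of the adhesive matrix protein F-spondin, had 6546, 6683 and 7867 in left epithelium, against 4358, 4289.6 and 5571 in left mesenchyme (0.57 ± 0.10 log2, adjusted p = 0.0039). COL6A1, a collagen VI chain, had 724, 1233 and 1358 in left epithelium, against 1546, 2188 and 1975 in left mesenchyme (-0.81 ± 0.20 log2, adjusted p = 0.039). Here the layers were apart on each gene, but COL6A1 lost its call without left epithelium 1 or 2 or any left mesenchyme array (0.083 to 0.24).

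Genes of the hyaluronan matrix and its proteoglycans were lower in left epithelium where they passed, 3 of 23 against none higher (13% against 1.82% of all genes, median -0.11 log2). HAPLN1, the link protein that ties proteoglycans to hyaluronan, had 868, 995 and 1038 in left epithelium, against 3595, 2449.8 and 2862 in left mesenchyme. It was 3.01-fold lower in left epithelium (-1.59 ± 0.17 log2, adjusted p = 4.8e-05), and the lowest mesenchymal array was far above the highest epithelial one. LUM, lumican, a small proteoglycan of collagen fibrils, had 1292, 1183 and 910.2 in left epithelium, against 2412, 2699 and 2569.8 in left mesenchyme (-1.18 ± 0.20 log2, adjusted p = 0.0031). DCN, decorin, fell by 0.58 ± 0.13 log2 (adjusted p = 0.024), a call lost without left epithelium 2 or 3 or any left mesenchyme array (0.06 to 0.15) and without the replicate block (0.081). HAS2, a hyaluronan synthase, was dim in both layers, at 103, 75.0 and 30.8 in left epithelium, against 120, 76.7 and 48.2 in left mesenchyme, and did not pass (adjusted p = 0.89).

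Of 28 matrix proteases and inhibitors, 2 fell and none rose (7.14% against 1.82% of all genes, median 0.08 log2). MMP28, an epilysin-type metalloprotease, had 31.5, 30.5 and 38.7 in left epithelium, against 248, 234 and 369.9 in left mesenchyme (-2.57 ± 0.32 log2, adjusted p = 0.00021). A second MMP28 probe set was dim and near equal in both layers, and the mean of both did not pass (-1.24 log2, adjusted p = 0.084). ADAMTSL1, a matrix protein related to metalloproteases, had 72.3, 41.3 and 55.8 in left epithelium, against 269, 238 and 170.0 in left mesenchyme. It did not overlap between the layers (-1.74 ± 0.37 log2, adjusted p = 0.019), but the call was lost without left epithelium 1 or 2 or any left mesenchyme array (0.07 to 0.13). None of the 11 tested integrins, the cell receptors for this matrix, passed. Their median was -0.56 log2, and ITGA6, which pairs to laminin receptors, was the 1 member above 0, at 0.19 ± 0.09 log2 (adjusted p = 0.39).

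Mesenchymal markers gave 3 falls and no rise among 13 tested genes (23.1% against 1.82% of all genes), with a median of -0.63 log2. The 3 were CDH11, a cadherin of mesenchymal cells, and the platelet-derived growth factor receptors PDGFRA and PDGFRB. CDH11 had signals of 1040.4, 1570.1 and 1694 in left epithelium, against 2545, 3526 and 2453 in left mesenchyme (-0.99 ± 0.19 log2, adjusted p = 0.0084). PDGFRA had 2789, 2869 and 2612 in left epithelium, against 4388, 4359 and 3675 in left mesenchyme (-0.58 ± 0.12 log2, adjusted p = 0.014). PDGFRB had 1717, 1596 and 1755 in left epithelium, against 2613, 2575 and 2649.9 in left mesenchyme (-0.63 ± 0.14 log2, adjusted p = 0.026), and a dim second probe set of it was near equal. The mean of both PDGFRB probe sets did not pass (-0.27 log2, adjusted p = 0.56). All 3 separated the layers but stayed bright in left epithelium.

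The transcription factors of the mesenchyme list did not pass. TWIST1 was at -0.47 ± 0.14 log2 (adjusted p = 0.12), FOXC2 at -0.58 ± 0.18 (0.13), MEOX1 at -0.96 ± 0.35 (0.25), FOXC1 at -0.94 ± 0.41 (0.38) and HAND2 at -0.67 ± 0.36 (0.51). MEOX2 was at -0.75 ± 0.46 (0.60), EBF1 at -0.67 ± 0.31 (0.41), BARX1 at 0.22 ± 0.37 (0.89), PRRX1 at 0.52 ± 0.44 (0.74) and NKX3-2 at 0.70 ± 0.38 (0.52). The PDGFRB call was lost without any 1 of the 6 left arrays (0.059 to 0.15), that of CDH11 without left epithelium 1 (0.069) or left mesenchyme 2 (0.095), and that of PDGFRA without left epithelium 1 or 3 or left mesenchyme 1 or 2 (0.063 to 0.12). The count was therefore 0 without left epithelium 1 and 0 without left mesenchyme 2.

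Regulators of the epithelial-to-mesenchymal transition included 4 falls and no rise among 12 tested genes (33.3% against 1.82% of all genes, median -0.39 log2), and 5 of the 12 were above 0. SNAI1, a Snail-family repressor of E-cadherin, had 162, 177 and 99.7 in left epithelium, against 681, 601 and 605 in left mesenchyme. It was 4.06-fold lower in left epithelium (-2.02 ± 0.24 log2, adjusted p = 0.00013), and no epithelial array came near the mesenchymal ones. SNAI2, the Snail-family member called Slug, had 1138, 908 and 892 in left epithelium, against 2054, 1933 and 1908 in left mesenchyme (2.002-fold lower in left epithelium, adjusted p = 0.0009). ZEB2, a zinc finger repressor, had 908, 1161 and 872 in left epithelium, against 1650.0, 1611 and 1644 in left mesenchyme (-0.74 ± 0.15 log2, adjusted p = 0.012). RHOB, a small GTPase, had 2636, 3580.4 and 3526 in left epithelium, against 4129, 4193 and 5495 in left mesenchyme (-0.50 ± 0.12 log2, adjusted p = 0.045). None of the 4 overlapped between the layers, which held for 434 of all 440 calls.

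ZEB1, the paralogue of ZEB2, was nearly equal, at 2123, 2295 and 2528 in left epithelium, against 1998, 2342 and 2335 in left mesenchyme (0.06 ± 0.13 log2, adjusted p = 0.92). TCF3 (0.11 ± 0.12) and TCF12 (0.06 ± 0.11), genes of ubiquitous basic helix-loop-helix factors, and ETS1 (-0.31 ± 0.26) did not pass either, and CDH1, the gene of E-cadherin, was at 0.08 ± 0.29 log2 (adjusted p = 0.96). CDH1 was chosen outside the rule for names, as the textbook target of SNAI1. RHOB lost its call without any 1 of the 6 arrays (0.053 to 0.27) and without the replicate block (0.12). ZEB2 did not pass with the mean of its probe sets (-0.50 log2, adjusted p = 0.095), and it lost its call without left epithelium 1 or 3 or left mesenchyme 1 or 3 (0.061 to 0.10), where the list's count was 2.

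Endothelial markers showed the most falls of any list: 18 of 28 tested genes were lower in left epithelium (64.3% against 1.82% of all genes) and none was higher. The median was -1.82 log2. The summed signal of the 28 genes was 5202, 6288 and 4469 in left epithelium, against 18951, 18456 and 18647 in left mesenchyme. The mesenchymal sums were thus alike and far above each epithelial one. On all 6 arrays 24 of the 28 genes were above the floor, so most also gave a signal in left epithelium. This count was not set against all tested genes, and the filter at 50.4 signal units already favours genes above the floor. CDH5, which encodes VE-cadherin of the endothelial junction, had 319, 521 and 196 in left epithelium, against 3386, 3310.2 and 3777 in left mesenchyme (10.4-fold lower in left epithelium, -3.38 ± 0.25 log2, adjusted p = 7.5e-07). SOX7, an endothelial transcription factor, had 68.2, 82.9 and 76.7 in left epithelium, against 815, 698 and 773 in left mesenchyme (-3.08 ± 0.28 log2, adjusted p = 6.2e-06).

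CLDN5, the endothelial claudin of tight junctions, had 101, 98.7 and 104 in left epithelium, against 633, 771 and 906 in left mesenchyme (-2.73 ± 0.30 log2, adjusted p = 5.9e-05). ECSCR, a surface protein of endothelial cells, had 1.07, 33.7 and 14.9 in left epithelium, against 257, 209 and 165 in left mesenchyme (-2.91 ± 0.48 log2, adjusted p = 0.0028). In ECSCR 1 of the 3 epithelial arrays was above the floor. FLT1, a receptor for vascular endothelial growth factor, had 194, 160.1 and 196 in left epithelium, against 466, 408 and 436 in left mesenchyme (-1.19 ± 0.23 log2, adjusted p = 0.0095). The count was 15 to 18 with any 1 of the 6 arrays left out, and FLT1 lost its call without left epithelium 2 or left mesenchyme 1 or 3 (0.057 to 0.069). CXCR4, a chemokine receptor of endothelium, germ cells and other migrating cells, was at -1.02 ± 0.27 log2 and did not pass (0.063).

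Macrophage and leukocyte markers fell in 6 of 11 tested genes and rose in none (54.5% against 1.82%), with a median of -1.31 log2. Their summed signal was 1161, 1375 and 1349 in left epithelium, against 4656, 3206 and 3396 in left mesenchyme, without overlap. SPI1, the transcription factor PU.1 of myeloid cells, had 37.4, 90 and 51.5 in left epithelium, against 273, 307 and 318 in left mesenchyme (-2.12 ± 0.32 log2, adjusted p = 0.0013). CSF1R, the receptor on which macrophages depend, had 155, 123 and 228 in left epithelium, against 718, 418 and 520.2 in left mesenchyme (-1.63 ± 0.28 log2, adjusted p = 0.0033). Both were clearly separated by layer, but the mean of the CSF1R probe sets did not pass (-1.11 log2, adjusted p = 0.065). The other 4 were the complement gene C1QB (-2.11 ± 0.46), the signalling regulator RGS18 (-1.78 ± 0.36), the protease gene CTSS (-1.47 ± 0.29) and CD74 (-1.31 ± 0.25), the invariant chain of antigen presentation. PTPRC, the pan-leukocyte marker CD45, had 43.7, 18.2 and 33.5 in left epithelium, against 92.6, 60.3 and 91.1 in left mesenchyme, and did not pass (adjusted p = 0.22). C1QC, MRC1, LCP1 and RUNX1 were at -1.22, -1.17, -0.98 and -0.77 log2 and did not pass either. The count was 2 without left epithelium 1 and 3 without left mesenchyme 1, where it includes a gene that had not passed with all arrays. C1QB, RGS18, CTSS and CD74 each lost the call without left epithelium 1 (0.065 to 0.15) and without left mesenchyme 1 (0.073 to 0.087), and at least 1 of them also without each other array, up to 0.16 for C1QB without left mesenchyme 3.

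**Figure D3:**
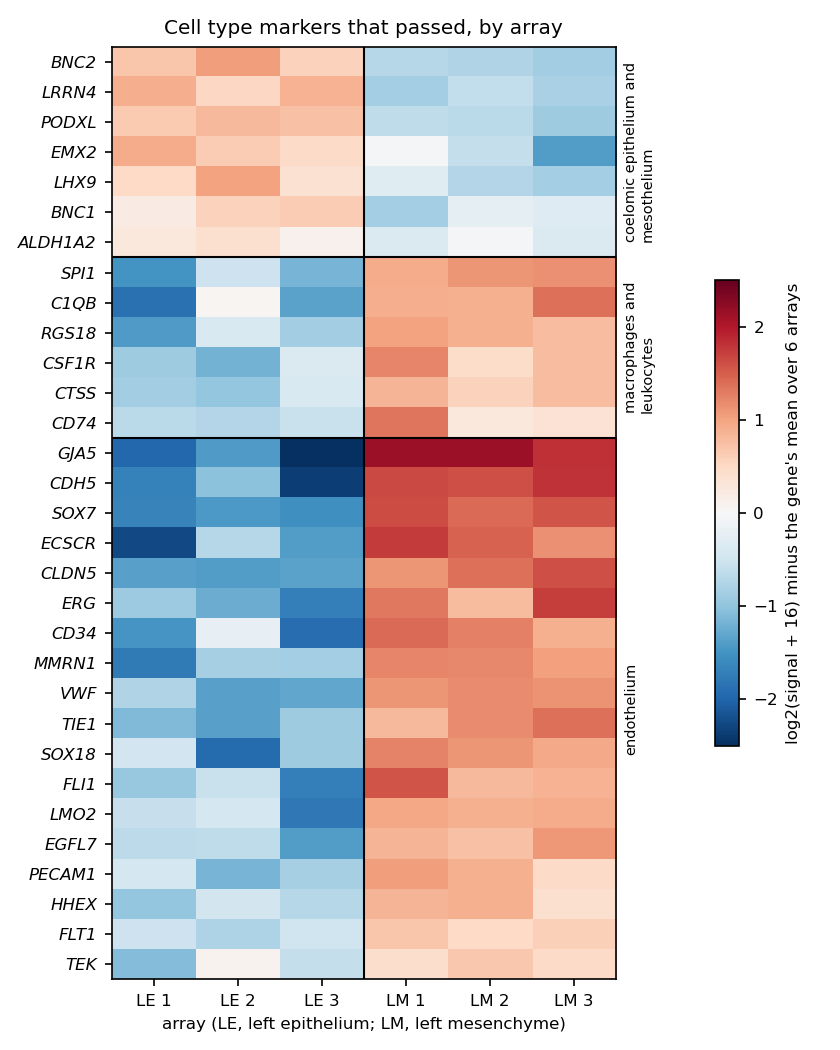
Log2(signal + 16) of cell type markers on the 6 left arrays (LE, left epithelium; LM, left mesenchyme), as the difference from each gene's mean over the 6, on a colour scale from blue (low) to red (high). The rows are only the markers that passed, 7 of 17 tested for coelomic epithelium, 6 of 11 for macrophages and leukocytes and 18 of 28 for endothelium, so that a separation of the layers is fixed by the choice of rows. The picture shows how far single arrays of 1 layer differ.

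None of 7 tested erythroid genes passed, with a median of -0.60 log2, and left epithelium 1 stood apart from the other epithelial arrays. The embryonic alpha-type globin HBZ had 10889, 3420 and 2651 in left epithelium, against 11094, 8138 and 7826 in left mesenchyme (-0.94 ± 0.24 log2, adjusted p = 0.053). HBA1 had 4064, 1199 and 876 in left epithelium, against 3549, 3062 and 2576 in left mesenchyme (-0.90 ± 0.25 log2, adjusted p = 0.097). On left epithelium 1 both globins were as bright as in mesenchyme, and on left epithelium 2 and 3 they were below it. HBAD, HBE and HBBR followed the same pattern at -0.60, -0.59 and -0.68 log2, EPB42, a red cell membrane protein, was at -0.32, and TFRC, the transferrin receptor, was at 0.15. The erythroid sum was 65923, 25999 and 21131 in left epithelium, against 60784, 46792 and 47948 in left mesenchyme. Without left epithelium 1, 5 of the 7 genes passed as lower, where 197 of the 22616 tested probe sets did. Without any other single left array the erythroid count stayed at 0. The part of blood in the other results was not tested.

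Of 7 tested genes of neural crest and enteric neurons, 2 fell (28.6% against 1.82% of all genes) and none rose (median -0.56 log2). EDNRB, an endothelin receptor of migrating crest cells and of endothelium, had 351, 315 and 345 in left epithelium, against 769.9, 604 and 777 in left mesenchyme (-1.05 ± 0.19 log2, adjusted p = 0.0055). NEFM, a neurofilament subunit, had 2002, 1542 and 1716 in left epithelium, against 3329.9, 2967 and 4126 in left mesenchyme (-0.97 ± 0.15 log2, adjusted p = 0.0013). Both kept the layers apart, and both calls held without any single array. RET, the receptor that marks enteric crest cells, had 132, 102 and 111 in left epithelium, against 226, 157 and 241 in left mesenchyme, and did not pass (-0.76 ± 0.33 log2, adjusted p = 0.37). NEFL was at -0.56 ± 0.37 log2, ELAVL4 at 0.34 ± 0.18 and GFRA1 and TUBB3 within 0.01 log2 of 0, all short of the threshold.

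No tested marker passed in the lists of endoderm (2 tested), neural tube, notochord and skeletal muscle (3), nephros, gonad and adrenal (6), liver (5) or germ cells (9). FOXA2, an endodermal transcription factor, was dim, at 27.0, 18.4 and 46.3 in left epithelium, against 94.9, 184 and 84.7 in left mesenchyme (adjusted p = 0.13). Germ cells migrate through the dorsal mesentery in the chick, and whether they lay in both layers was not tested. Their RNA-binding protein gene DAZL had 4890, 5329 and 5450 in left epithelium, against 4675, 4249 and 3869 in left mesenchyme (0.29 ± 0.11 log2, adjusted p = 0.27). DAZL thus had a bright signal on all 6 arrays, and the difference between the layers did not pass. PIWIL1, of the piRNA pathway, was at 0.29 ± 0.21 log2, DDX4, the Vasa gene, at 0.32 ± 0.26 and KIT at 0.31 ± 0.25.

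Among signalling genes, FGF9 was the 1 ligand of the FGF list to pass, and 2 genes of the list fell (22 tested, median -0.17 log2). The shares were 4.55% higher against 0.822% of all genes, and 9.09% lower against 1.82%. FGFR2, a receptor for FGF9 and other ligands, had 2532, 2619 and 2203 in left epithelium, against 3826, 3691 and 4309 in left mesenchyme (-0.68 ± 0.12 log2, adjusted p = 0.0043). DUSP6, a phosphatase that FGF signalling induces, had 1626, 2339.8 and 2345 in left epithelium, against 3031, 3593 and 3330.5 in left mesenchyme (-0.67 ± 0.14 log2, adjusted p = 0.015). The ligand was thus higher in left epithelium, and a receptor and a target gene were lower there. The layers of all 3 did not overlap, which held for nearly all calls. With the mean of its probe sets FGFR2 did not pass (-0.58 log2, adjusted p = 0.06). DUSP6 lost its call without left epithelium 1 or any left mesenchyme array (0.066 to 0.11).

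In the BMP and TGF-beta family, 1 of 18 ligands and receptors rose (5.56% against 0.822% of all genes) and none fell (median 0.02 log2). BMP7, a ligand, had 961, 1073 and 1206 in left epithelium, against 352, 734 and 292 in left mesenchyme (1.31 ± 0.28 log2, adjusted p = 0.016). Its layers did not overlap, although left mesenchyme 2 was well above the other mesenchymal arrays. Of 21 modulators and targets 1 rose (4.76% against 0.822% of all genes) and 2 fell (9.52% against 1.82%), with a median of -0.10 log2. LTBP1, which holds latent TGF-beta in the matrix, rose by 0.47 ± 0.09 log2 (adjusted p = 0.012). BMPER, a secreted BMP-binding protein, had 575, 641 and 473 in left epithelium, against 1043, 1396 and 1154 in left mesenchyme (-1.07 ± 0.17 log2, adjusted p = 0.0018). BAMBI, a pseudoreceptor that dampens BMP signalling, had 4627, 4501 and 3819 in left epithelium, against 8218, 6498 and 7328 in left mesenchyme (-0.76 ± 0.11 log2, adjusted p = 0.0011). The layers of BMPER and BAMBI were well apart. BMP7 lost its call without left epithelium 1 or 3 or left mesenchyme 1 or 3 (0.078 to 0.15), and LTBP1 without any array but left epithelium 3 (0.051 to 0.099).

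Of 27 genes of PDGF, VEGF, KIT and HGF signalling, 1 rose (3.7% against 0.822% of all genes) and 4 fell (14.8% against 1.82%). The median was 0.02 log2. PDGFD, a ligand of the PDGF receptors, had 1435, 1781 and 1657 in left epithelium, against 792, 906 and 944 in left mesenchyme (0.87 ± 0.21 log2, adjusted p = 0.035). Its levels did not overlap. The receptors PDGFRA, PDGFRB and FLT1 were lower in left epithelium, as given above, and so was IGFBP2, a binding protein of insulin-like growth factors, at 2610.3, 3307 and 2597 in left epithelium, against 4289, 4275 and 4908 in left mesenchyme (-0.67 ± 0.13 log2, adjusted p = 0.008). PDGFD lost its call without left epithelium 2 or 3 or left mesenchyme 1 or 2 (0.14 to 0.21), and IGFBP2 without left mesenchyme 1 or 3 (0.051 and 0.10). The PDGFD call was also lost without the filter on low values and after quantile normalization, and both calls were lost without the intensity trend. Of the 4 falls in this list, 2 remained in number without left epithelium 1, 2 or 3 or left mesenchyme 2, 1 without left mesenchyme 3 and 0 without left mesenchyme 1.

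The enzymes that make retinoic acid differed in direction. ALDH1A2 had 8889, 9713 and 7912 in left epithelium, against 5737, 7110.0 and 5732 in left mesenchyme. ALDH1A3, its paralogue, had 684, 1506 and 1044 in left epithelium, against 2576, 3936 and 2563 in left mesenchyme (2.86-fold lower in left epithelium, -1.52 ± 0.18 log2, adjusted p = 0.00012). The layers of both enzymes were apart, with ALDH1A2 higher and ALDH1A3 lower in left epithelium. RARB, a receptor whose gene retinoic acid induces, fell by 0.70 ± 0.17 log2 (adjusted p = 0.037), a call lost without any array but left epithelium 3 (0.067 to 0.23) and with the mean of its probe sets (-0.48 log2, 0.098). In all, 1 of 15 genes of the retinoic acid list rose (6.67% against 0.822% of all genes) and 2 fell (13.3% against 1.82%), with a median of 0.04 log2.

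Notch pathway genes fell in 4 of 12 tested cases and rose in none (33.3% against 1.82%, median -0.59 log2). LFNG, a glycosyltransferase that modifies Notch receptors, had 465, 423 and 374 in left epithelium, against 1079, 1132 and 1032 in left mesenchyme (-1.33 ± 0.22 log2, adjusted p = 0.003). DLL4, the Notch ligand of arterial endothelium, had 14.5, 31.5 and 8.88 in left epithelium, against 208, 196 and 107 in left mesenchyme (-2.45 ± 0.44 log2, adjusted p = 0.0053). HES5, a Notch target, had 62.5, 94.6 and 35.8 in left epithelium, against 541, 275 and 259 in left mesenchyme (-2.21 ± 0.41 log2, adjusted p = 0.007). Each of these genes separated the layers, and DLL4 was above the floor on 1 of 3 epithelial arrays. DLK1, a non-canonical ligand, had 3.29, 32.3 and 6.63 in left epithelium, against 189, 111 and 159 in left mesenchyme (-2.58 ± 0.52 log2, adjusted p = 0.012). It, too, was above the floor on 1 of 3 epithelial arrays. The receptor gene NOTCH1 did not pass, at -0.52 ± 0.21 log2 (0.32), and neither did NOTCH2, JAG1, JAG2, HES4, HEY1, RFNG and MAML2, at -0.85 to 0.46 log2. The count of 4 was 2 without left epithelium 1, 1 without left mesenchyme 1 and 2 without left mesenchyme 3. DLK1 and HES5 lost the call without each of these 3 (0.054 to 0.10), DLK1 also without left epithelium 3 (0.056), and DLL4 without left mesenchyme 1 (0.061).

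Wnt and hedgehog genes showed few differences. Of 24 Wnt ligands and receptors 1 fell (4.17% against 1.82% of all genes). It was FZD8, a Frizzled receptor, at 1445, 1898 and 1769 in left epithelium, against 3497, 2995 and 2629 in left mesenchyme (-0.83 ± 0.16 log2, adjusted p = 0.007). A dim second FZD8 probe set had the opposite sign and did not pass, and neither did the mean of both (-0.34 log2, adjusted p = 0.38). Of 24 Wnt antagonists, polarity genes and targets 1 rose (4.17% against 0.822% of all genes) and 1 fell (4.17% against 1.82%). FAT1, an atypical cadherin of planar polarity, rose by 0.69 ± 0.14 log2 (adjusted p = 0.01). TCF7L2, a transcription factor of the canonical pathway, fell by 0.92 ± 0.19 log2 (adjusted p = 0.012), but 1 of its 4 probe sets had the opposite sign and their mean did not pass (-0.18 log2, adjusted p = 0.76). FZD8 lost its call without left epithelium 1 (0.057) or left mesenchyme 1 (0.073), FAT1 without left epithelium 2 (0.056) or left mesenchyme 3 (0.11), and TCF7L2 without left epithelium 2 or 3 or left mesenchyme 1 or 2 (0.061 to 0.11). None of 14 hedgehog genes passed, from the receptor gene PTCH1 (-0.24 ± 0.20 log2) to the effectors GLI1, GLI2 and GLI3 (-0.36, -0.36 and -0.04 log2).

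Of 38 guidance cues and receptors 2 fell and none rose (5.26% against 1.82% of all genes, median -0.08 log2). PLXND1, a semaphorin receptor known for guiding vessels, was among the brightest of the falls, at 1993, 3577 and 2599 in left epithelium, against 9833, 10403 and 9897 in left mesenchyme. That is 3.78-fold lower in left epithelium (-1.92 ± 0.14 log2, adjusted p = 5.8e-07), with mesenchymal arrays within a narrow range. UNC5C, a netrin receptor, had 1339, 1105 and 1831 in left epithelium, against 2681, 2172 and 2051 in left mesenchyme (-0.71 ± 0.17 log2, adjusted p = 0.038), a call lost without left epithelium 1 or 2 or left mesenchyme 1 or 2 (0.13 to 0.27). Among 25 cadherins, protocadherins and catenins, CDH5 and CDH11, given above, fell (8% against 1.82% of all genes) and none rose. N-cadherin, CDH2, which was chosen as a gene named for the left dorsal mesentery, had 6479, 6012 and 6138 in left epithelium, against 5855, 10817 and 5399 in left mesenchyme. Its layers overlapped because of left mesenchyme 2, and it did not pass (adjusted p = 0.79).

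Of 22 genes of DNA replication and S phase, 21 were above 0, with a median of 0.27 log2, and none passed. Of 25 mitotic genes 23 were above 0, with a median of 0.32 log2, and 1 passed as higher (4% against 0.822% of all genes). Among all genes 4818 of 9611 were above 0. The summed signal of the S phase list was 52311, 47264 and 48444 in left epithelium, against 42062, 38527 and 42930 in left mesenchyme, and that of the mitotic list 94144, 95899 and 96857, against 79600, 79557 and 80257. Neither pair of sums overlapped, and members of these lists are known to rise and fall together within a cell. The 1 call was CENPF, a kinetochore protein, at 4178, 4331 and 4408 in left epithelium, against 3044, 3204 and 3055 in left mesenchyme (0.47 ± 0.12 log2, adjusted p = 0.045), and it was lost without any 1 of the 6 arrays (0.083 to 0.29), without the replicate block (0.054) and with the mean of its probe sets (0.48). Of 8 cell cycle inhibitors and D cyclins 3 were above 0 and none passed, with a median of -0.07 log2. The D cyclins CCND1, CCND2 and CCND3 were at -0.17, 0.07 and 0.31 log2 and did not pass.

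In the lists of glycolysis and hypoxia (20 tested, median 0.04 log2) and HOX genes (21 tested, median -0.01 log2) no gene passed. Of 13 immediate early and stress genes 1 fell (7.69% against 1.82% of all genes). CYR61, a matrix protein induced by growth factors and strain, fell by 0.72 ± 0.16 log2 (adjusted p = 0.029). Its call was lost without any array but left mesenchyme 1 (0.062 to 0.23) and without the replicate block (0.053). JUN was at -0.03 ± 0.10 log2 and the heat shock gene HSPA8 at 0.09 ± 0.09. Of 17 genes of smooth muscle and actomyosin 1 fell (5.88% against 1.82% of all genes). It was CALD1, caldesmon, at 11227, 11380.2 and 10828 in left epithelium, against 13920.5, 13026 and 14907 in left mesenchyme (-0.32 ± 0.08 log2, adjusted p = 0.045). Without any 1 of the 6 arrays CALD1 did not pass (0.079 to 0.24), nor without the replicate block (0.051).

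Genes known for the left or the right side of the dorsal mesentery were also read by layer. These short lists came from general knowledge of the field and may include genes picked on these same samples, so they are not independent evidence. Of 7 tested genes named for the left, FZD8 fell (14.3% against 1.82% of all genes) and the others did not pass. CXCL12, a chemokine that vessels follow, had 6172, 6811 and 6714 in left epithelium, against 9489, 8609 and 8986 in left mesenchyme (-0.46 ± 0.13 log2, adjusted p = 0.091). ISL1, a LIM-homeodomain factor, had 702, 836 and 836 in left epithelium, against 1250, 1019 and 917 in left mesenchyme (-0.41 ± 0.26 log2, adjusted p = 0.63). The layers of both genes did not overlap, which held for 16.9% of all tested probe sets, and neither gene passed. GPC3 was at -0.23 ± 0.18, DAAM2 at 0.01 ± 0.24 and FZD4 at 0.38 ± 0.17 log2. None of 5 genes named for the right passed on the left side, with TBX18 given above, SFRP1 at 0.37 ± 0.16, SFRP2 at -0.23 ± 0.18, BMP4 at -0.36 ± 0.37 and HAS2 at -0.22 ± 0.37 log2.

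**Figure D4:**
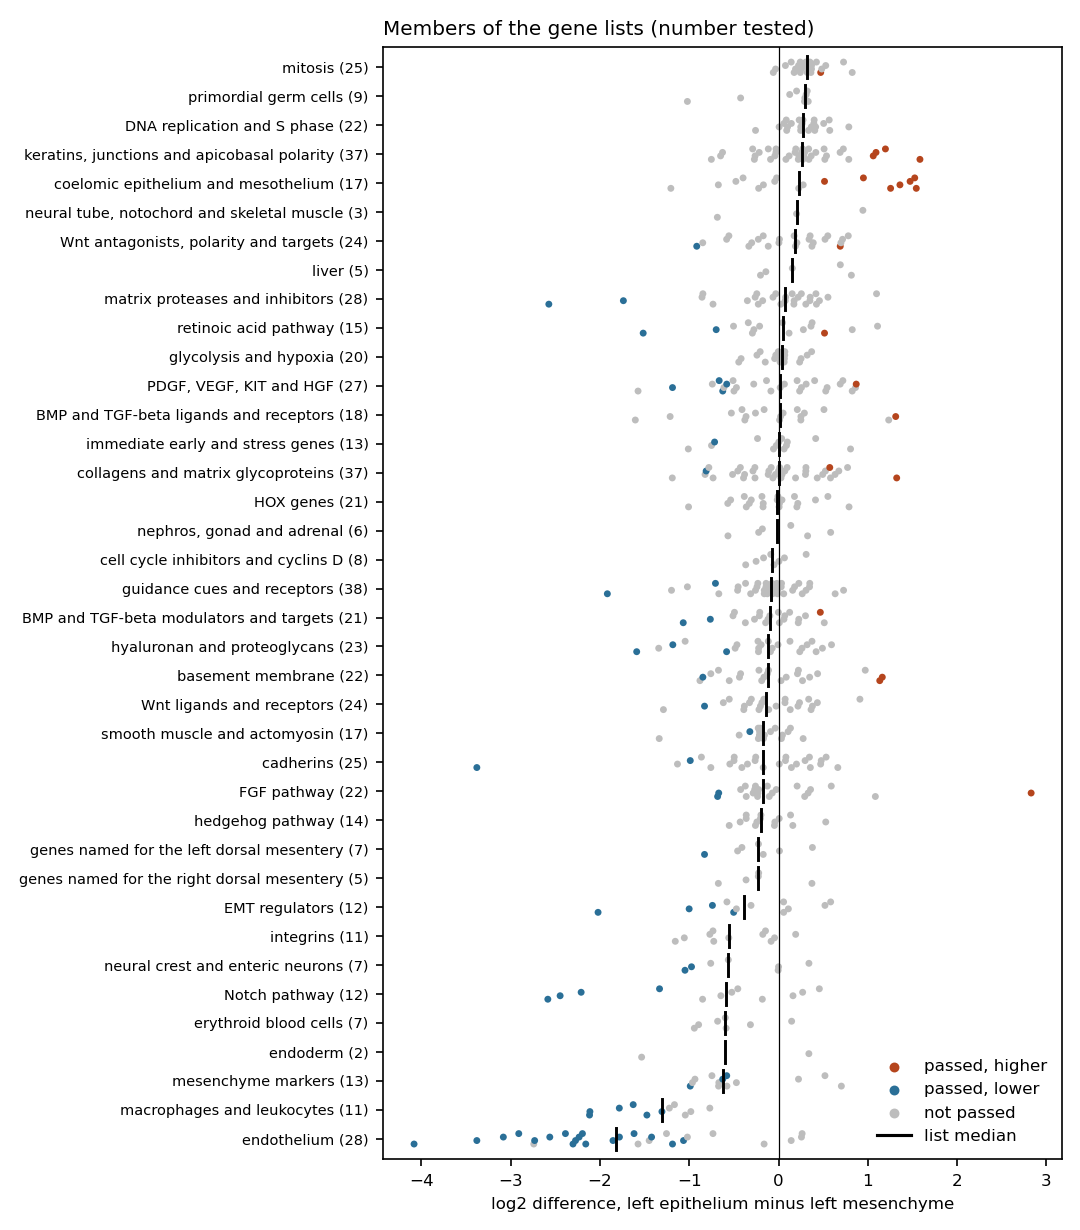
Log2 difference of left epithelium minus left mesenchyme for each tested member of 38 gene lists, ordered by list median (black line). Red members passed as higher, blue as lower, and grey did not pass, and the number of tested members stands beside each list. The medians run from -1.82 log2 for endothelium to 0.32 log2 for mitosis.

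The layer difference of the left side was then set against that of the right side, from the other 6 arrays. Between right epithelium and right mesenchyme 437 probe sets passed (1.93%), 203 higher and 234 lower. The tested probe sets were chosen by their mean over the left arrays, so those bright on the right alone could be missing from both counts and from the test of the sides. Of the 440 left calls, 411 (93.4%) had the same sign on the right, and 168 passed there in the same direction, 65 higher and 103 lower. The share of all tested probe sets with the same sign on both sides was not counted, so the 93.4% stands without a comparison. Over all tested probe sets the correlation of both differences was 0.37 (Pearson). The probe sets were measured on the same 12 arrays and are no replicates. A call on 1 side and not on the other does not show that the sides differ, and so the difference between the sides was tested itself. It passed for 6 probe sets (0.0265%). In 2 (0.00884%) the left difference was the higher and in 4 (0.0177%) the lower. The 6 included 3 genes with a symbol (0.0312% of genes). At an unadjusted p under 0.05 there were 1329 of 22616. A share of 0.05 falls under that limit where no side difference exists, so this is no count of side differences.

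The smallest adjusted p, 0.0025, belonged to a probe set without a gene symbol, and the 3 genes with one follow. The signal of LOC419390 was 160.5, 346 and 184 in left epithelium, against 3325, 3123 and 3904 in left mesenchyme. On the right it was 124, 209 and 136 in right epithelium, against 415, 280 and 309 in right mesenchyme. Left mesenchyme alone was bright, and the layer difference was -3.88 log2 on the left and -1.04 log2 on the right, apart by -2.85 ± 0.39 log2 (adjusted p = 0.012). LOC101749175 had 102, 77.7 and 119 in left epithelium, against 619.9, 612 and 744 in left mesenchyme, with -2.56 log2 on the left and 0.67 log2 on the right (difference -3.23 ± 0.48 log2, adjusted p = 0.023). It, too, was bright in left mesenchyme alone, with 93.7 to 150 in right epithelium and 44.5 to 117 in right mesenchyme.

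RDH10, which makes retinal, the precursor of retinoic acid, had 7887, 9387 and 7979 in left epithelium, against 7371, 8446 and 7427 in left mesenchyme. It had 9842, 8545 and 6405 in right epithelium, against 3385, 3140 and 3014 in right mesenchyme. On the left the layers overlapped and did not differ beyond their spread (0.12 ± 0.12 log2, adjusted p = 0.79), and on the right they were 1.35 log2 apart. The difference between the sides was -1.24 ± 0.17 log2 (adjusted p = 0.012). No other gene named in the text passed this test. For the endothelial list the median was -1.82 log2 on the left and -1.01 log2 on the right. Of 28 tested members 18 fell on the left and 7 on the right, against 175 and 138 of all 9611 genes. No member passed the test of the difference between the sides, which only 3 of the 9611 genes did. SNAI1 was at -2.02 log2 on the left and -0.45 log2 on the right, and its difference did not pass that test. The number of probe sets with a side difference was 15 without left epithelium 1 and 2 without left epithelium 3 or any 1 of the left mesenchyme arrays. Without experiment 2 it was 0 in limma. There 1029 of 22616 had an unadjusted p under 0.05, to be read against the same share of 0.05.

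**Figure D5:**
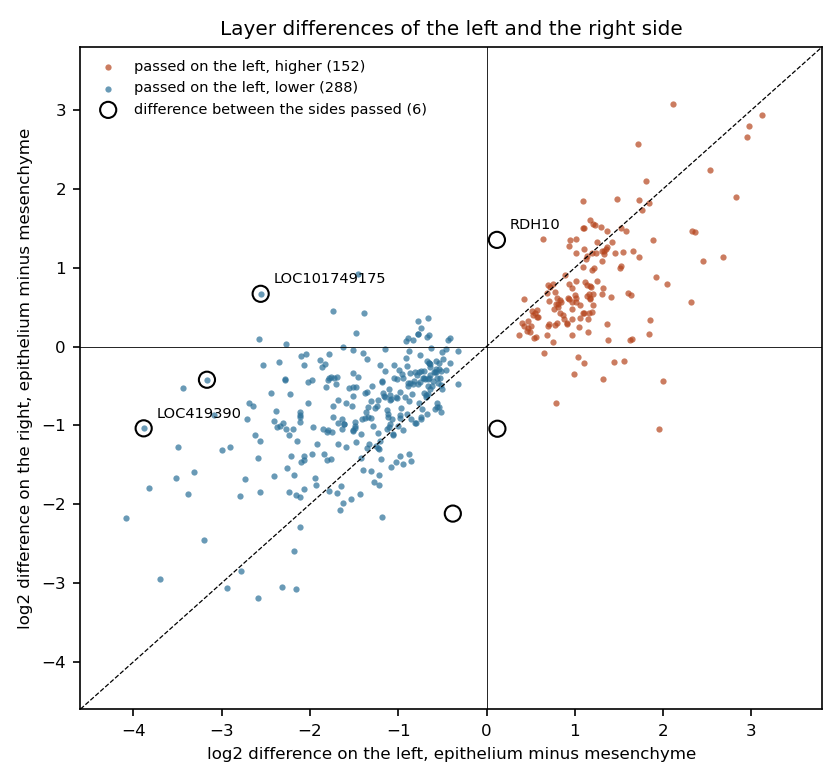
Log2 difference between epithelium and mesenchyme on the left (horizontal axis) and on the right (vertical axis) for the 440 probe sets that passed on the left, red where higher and blue where lower in left epithelium. The dashed line marks equal differences, and rings mark the 6 probe sets whose difference between the sides passed, 3 of which are not among the 440. Of the 440, 411 lie on the same side of 0 on both axes, and the share of all tested probe sets that do so was not counted.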

How the data were processed

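Affymetrix intensity values were deposited by the authors as 1 table for all 12 arrays, made with MAS5 in GCOS per the submitters' processing notes, with versions not given in the sources used here. On each array the mean after trimming 2% at each end was about 500.1, so the arrays had been scaled, and that scaling was kept. The detection calls were not used. Its 38535 probe sets comprised 37693 of chicken, 96 controls and 746 under other accessions. By the 2016 platform annotation, 27166 of the chicken probe sets had 1 symbol, 177 had several and 10350 had none, and only those with 1 were named. The Entrez identifiers of 26851 stood in the chicken RefSeq table, and 0 symbols differed.

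A value of 16 was added before log2, which understates the change of dim genes. Testing was limited to chicken probe sets whose mean log2 over the 6 left arrays exceeded its 40th percentile, at 50.4 signal units, so that a gene bright in 1 layer could pass through that layer. The floor is the 95th percentile of 59 control probe sets. A model of compartment with the experiment as a fixed block was fitted to the 12 arrays (limma 3.58.1, R 4.3.3), with an intensity trend, two-sided tests and Benjamini-Hochberg adjustment over the 22616 tested probe sets. The right arrays add to the estimate of the spread (6 residual and 10.7 prior degrees of freedom). ± is the SE of a log2 difference. Adjusted p-values come from this fit, and those printed for a left-out array from the same fit without it.

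Per the series text the 4 compartments came from each of 3 biological experiments, which the numbers in the titles were taken to mark. Deviations of same-numbered left arrays correlated at 0.11, 0.03 and 0.05 in experiments 1, 2 and 3. Separate animals behind the experiments are not described beyond that text.

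A gene stood by its tested probe set with the highest mean over the left arrays. Of 4837 tested genes with more than 1 probe set 2495 had one of the opposite sign, and no called gene had an opposite call. Named by size were the 12 largest rises and 12 largest falls among called genes. These had the same sign in all 3 experiments and lay above the floor on all 3 arrays of the brighter layer. Also named were up to 5 passing members of a list, all members of lists of up to 14, and up to 10 genes that differed between the sides. The members, lists and rule were chosen with earlier results of these data known, and the lists were written from general knowledge. The code was tested on simulated data.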

Additional observations from a re-analysis of the deposited data

Results flagged for a closer look

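The layer difference differed between the left and the right side for 6 probe sets, by a test of the difference itself in limma. For LOC419390 the left minus the right layer difference was -2.85 log2, for LOC101749175 -3.23 log2 and for RDH10 -1.24 log2. The other 3 have no gene symbol in the annotation. For the first the difference was -2.75 log2, with signals of 273, 264 and 156 in left epithelium and 2138, 1965 and 2347 in left mesenchyme. The second differed by 1.74 log2, with means of 1636 in left epithelium and 2165 in left mesenchyme, against 1175 in right epithelium and 4918 in right mesenchyme. The third differed by 1.17 log2, and it was bright in both left layers, at means of 15471 in left epithelium and 14228 in left mesenchyme, against 967 in right epithelium and 1974 in right mesenchyme.

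Of the 746 probe sets named by viral or other accessions, which enter no comparison, 8 were above the floor on all 6 left arrays.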

How the results depend on the processing

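The signs of the 85 called genes named by the rule did not turn under any setting run, and 28 passed under all of them. Genes chosen after their values were seen are not among the 85. Without an intensity trend 84 probe sets were higher, 165 lower and 0 differed between the sides (1366 of 22616 at an unadjusted p under 0.05, limma). A share of 0.05 falls under that limit where no side difference exists. In that setting 32 of the 85 genes lost the call, among them CYGB, BAMBI, SPON1 and FGFR2, which held without any single array. Differences between the sides numbered 15 with array weights, 3 without a filter, 11 without the replicate block, 10 with a pseudocount of 64 and 10 after quantile normalization, against 6. Leaving out an array or an experiment gave 48 to 122 higher, 99 to 232 lower and 0 to 15 for the sides. The 0 was without experiment 2 (1029 of 22616 at an unadjusted p under 0.05, limma). Without the replicate block 143 were higher and 280 lower, and 7 of the 85 genes lost the call (EMX2, LMX1B, DCN, RHOB, CYR61, CALD1 and CENPF). Without experiment 1, 2 or 3, 45, 42 and 34 of the 85 did. The 6 left arrays fitted alone, with 2 residual degrees of freedom, gave 197 higher and 313 lower with the block, or 510, of which 395 were shared with the 440. With the mean of a gene's probe sets 9 of the 85 lost the call. Without a filter 10 did (CALD1, CENPF, COL4A6, COL6A1, EMX2, PDGFD, RARB, RHOB, RLN3 and UNC5C). A pseudocount of 1 cost RLN3 its call, and quantile normalization that of PDGFD. The cause of these shifts was not tested. Dim genes are limited by the floor, and 402 of the 440 probe sets were above it on all 6 arrays.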

Other observations

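DEFB4A, AvBD7 and CATH1 were chosen after their values were seen, for their resemblance to AvBD1, and no list of such genes was tested. DEFB4A had signals of 50.3, 82.1 and 31.4 in left epithelium, against 358, 347 and 729 in left mesenchyme (-2.79 ± 0.36 log2, adjusted p = 0.00027). AvBD7, an avian beta-defensin, had 36.8, 138 and 58.9 in left epithelium, against 378, 337 and 926 in left mesenchyme (-2.58 ± 0.41 log2, adjusted p = 0.0018). CATH1, a cathelicidin, had 49.4, 8.54 and 29.5 in left epithelium, against 102, 163 and 308 in left mesenchyme (-2.19 ± 0.46 log2, adjusted p = 0.015). On all 3 the layers did not overlap, and on each left mesenchyme 3 was the brightest array. Peptides of these families are stored in avian heterophils, the counterpart of neutrophils. Whether such cells lay in either layer was not tested.

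VEGFRKDRL, EPAS1, MFGE8 and GJA1 were also chosen after their values were seen. VEGFRKDRL, judged only by its symbol to be related to the VEGF receptor KDR, had 118, 112 and 105 in left epithelium, against 715, 1042 and 711 in left mesenchyme (-2.69 ± 0.37 log2, adjusted p = 0.00056). EPAS1, a hypoxia-inducible factor prominent in endothelium, had 138, 155 and 163 in left epithelium, against 821, 1182 and 1154 in left mesenchyme (-2.65 ± 0.29 log2, adjusted p = 5.1e-05). Higher in left epithelium were MFGE8, a secreted integrin-binding glycoprotein, at 5731, 5732 and 4950 in left epithelium, against 1873, 2159 and 1259 in left mesenchyme (1.66 ± 0.16 log2, adjusted p = 1.2e-05), and GJA1, another connexin gene, at 2637, 1994 and 1881 in left epithelium, against 877, 807 and 651 in left mesenchyme (1.46 ± 0.19 log2, adjusted p = 0.00031). GJA1 and GJA5 thus had opposite directions between the layers.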
